A study of Mus musculus with 12 samples.

Results

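The 10 genes described here encode the machinery of store-operated calcium entry and of calcium handling in the endoplasmic reticulum (ER): Orai1, Orai2, Orai3, Stim1, Stim2, Trpc1, Atp2a2, Atp2a3, Itpr2 and Itpr3. They are 10 of 18193 genes measured and have 26 probe sets annotated to 1 of them only. The genes were chosen by function with earlier results of these data known, so their counts beside all genes are a description. The level of a gene is read from the probe set whose mean over the 12 arrays is highest, and its other probe sets are given beside it.

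C790 is a mouse melanoma cell line with an Nras mutation. The cells of all 4 groups had been transduced with a lentiviral vector that expresses Oct4, Sox2 and Klf4 under doxycycline together with a blasticidin resistance gene, and with a second vector that carries the doxycycline-dependent transactivator and mCherry. Partially reprogrammed cells were kept in doxycycline (+dox) and control cells were kept without it (−dox), and both were studied at day 20. The groups were +dox cells with trametinib, −dox cells with trametinib, +dox cells with DMSO and −dox cells with DMSO, each treatment lasting 72 h, with 3 arrays per group. Trametinib inhibits the kinase MEK, which activates ERK, and DMSO is its solvent. The labels do not say whether the arrays of a group came from separate cultures, so the p-values speak of the spread among these arrays, which may be technical. The arrays hold values of whole cell populations, in which a change in the proportion of cells and a change in RNA per cell cannot be told apart.

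Store-operated entry refills calcium after the ER has been emptied. Receptors for inositol trisphosphate (IP3) release calcium from the ER, STIM proteins in the ER membrane sense the loss, and they open ORAI channels in the plasma membrane through which calcium enters. SERCA pumps carry it back into the ER, and the refilled store can signal again. In melanoma this route has been studied for its part in migration and invasion.

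More of these genes passed the test for trametinib than for doxycycline, as did more of all genes. Orai1 and Orai3, which form pores of the entry channel, and Atp2a2, the widely expressed SERCA2 pump, rose with trametinib in both +dox and −dox cells. With trametinib Stim2 fell in +dox cells, and Stim1 and Trpc1 rose and Atp2a3, the SERCA3 pump, fell in −dox cells. Each was called in that cell state only, but no response of the 10 genes differed between the cell states by limma. The Stim2 fall was lost in 7 of the 12 fits that left out 1 array. Under DMSO, Trpc1 and Stim2 were higher in +dox than in −dox cells. The plot of levels by array shows all 10 genes.

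**Figure D1:**
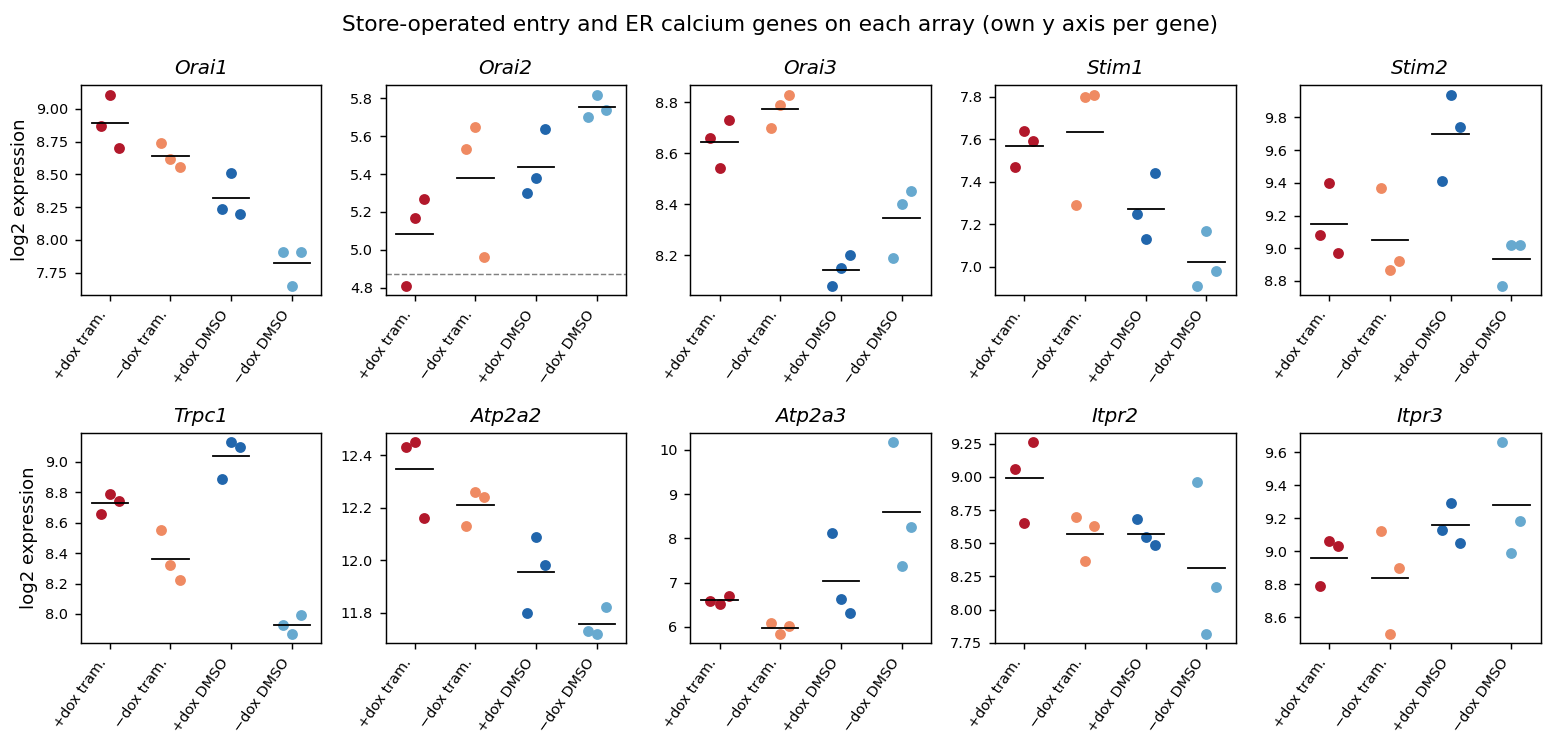
Log2 expression level of each of the 10 genes (vertical axis) on every array, in the 4 groups along the horizontal axis; points are arrays and bars are group means, and the dashed line in the Orai2 panel is the background level of 4.87. The trametinib arrays of Orai1 and Orai3 lie above all DMSO arrays of the same cell state, and Trpc1 is lowest in −dox cells with DMSO.

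Dusp6, an ERK phosphatase that ERK signalling induces, checks the trametinib label: its level averaged 4.96 in +dox and 3.95 in −dox cells with trametinib, against 11.86 in +dox and 12.06 in −dox cells with DMSO, and the 2 sets of arrays did not overlap. Of the vector's genes under DMSO, Pou5f1 (Oct4) averaged 5.45 in +dox and 4.63 in −dox cells (limma, adjusted p = 0.0155), Sox2 5.87 and 7.40 (adjusted p = 0.0909) and Klf4 9.30 and 9.45 (adjusted p = 0.798) in the same order. Whether these probe sets lie within the sequence the vector carries is not known here, so they do not settle the doxycycline label. Among the melanocyte markers, Tyr, Tyrp1, Dct and Mlana were under the background level on all 12 arrays, while Mitf, Pmel and Sox10 were above it on all 12. The level of each array as a whole correlated with the others of its group at a mean of 0.982 to 0.994, lowest for replicate 1 of the −dox DMSO cells.

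The calls are read against all genes. A gene was called at an adjusted p under 0.05 from limma. Trametinib against DMSO in +dox cells called 26.2% of all genes (13.8% higher and 12.5% lower) and 4 of the 10 (3 higher and 1 lower), and in −dox cells 22.4% of all genes (11.6% higher and 10.8% lower) and 6 of the 10 (5 higher and 1 lower). Doxycycline under DMSO called 6.15% of all genes (2.87% higher and 3.28% lower) and 2 of the 10, both higher. Under trametinib it called 3.37% of all genes (1.95% higher and 1.42% lower) and none of the 10 by limma, where 1 gene, Trpc1, had an unadjusted p under 0.05. Set against each other, the responses to trametinib in the 2 cell states differed for 0.33% of all genes and for none of the 10 by limma, and 3 of them had an unadjusted p under 0.05. The arrays of the compared groups did not overlap for 7 of the 10 with trametinib in +dox cells (40.7% of all genes), 7 in −dox cells (35.6%), 4 with doxycycline under DMSO (22.4%) and 2 with doxycycline under trametinib (20.1%). The median log2 change of the 10 genes with trametinib was 0.05 in +dox cells beside 0.02 over all genes, and 0.34 in −dox cells beside 0.06. For doxycycline the medians were 0.23 under DMSO beside 0.01 over all genes and 0.13 under trametinib beside −0.02.

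**Figure D2:**
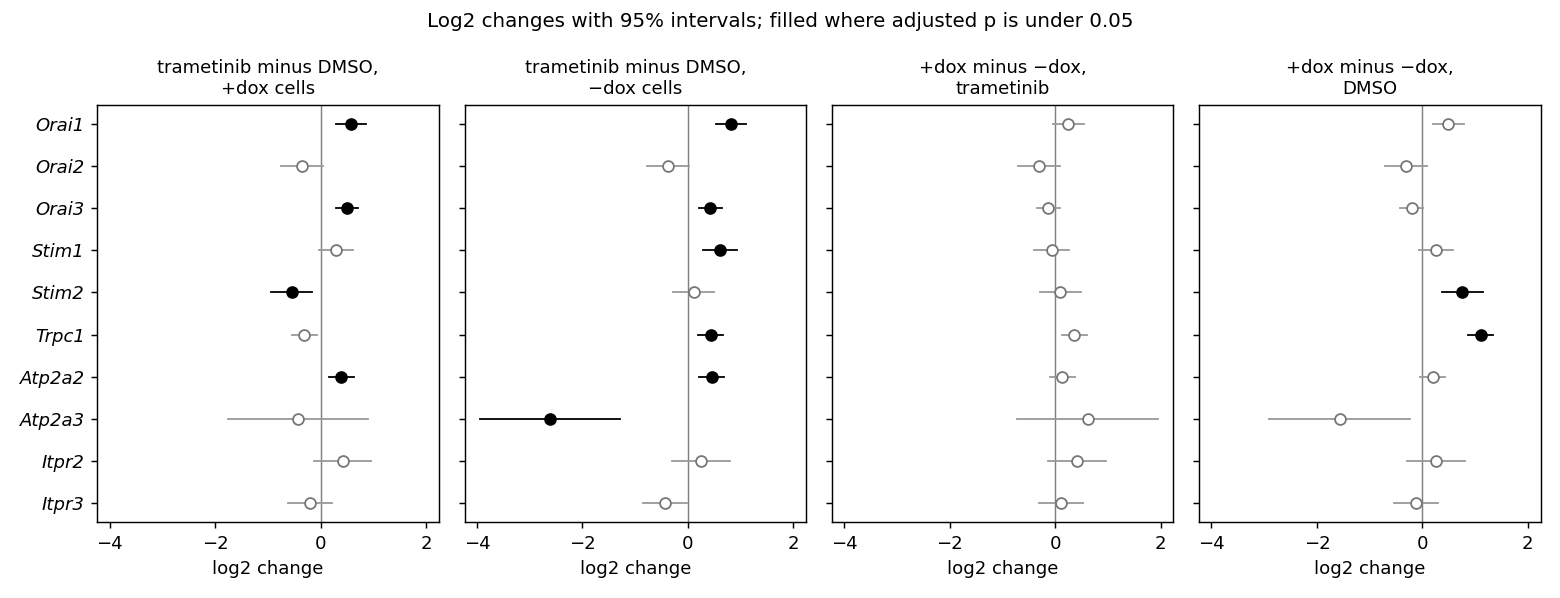
Log2 change of each of the 10 genes (horizontal axis) with its 95% interval from limma, in the comparisons of trametinib with DMSO and of +dox with −dox cells; filled points passed an adjusted p of 0.05. Orai1, Orai3 and Atp2a2 lie to the right of 0 for trametinib in both cell states, and Atp2a3 has the widest intervals.

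The pore-forming channels come first. Orai1 builds the pore of the classical calcium release-activated channel. Its level was 8.87, 9.11 and 8.70 in +dox cells with trametinib, 8.74, 8.62 and 8.56 in −dox cells with trametinib, 8.24, 8.51 and 8.20 in +dox cells with DMSO and 7.91, 7.65 and 7.91 in −dox cells with DMSO. In each cell state every trametinib array was above every DMSO array. With trametinib Orai1 rose by 0.58 on the log2 scale in +dox cells (SE 0.132, 1.49-fold, limma adjusted p = 0.00707) and by 0.82 in −dox cells (SE 0.132, 1.76-fold, adjusted p = 0.00123). The rises differed by −0.24 (adjusted p = 0.679, 95% interval −0.65 to 0.17). Under DMSO the +dox arrays were also all above the −dox arrays, with a log2 difference of 0.49 (SE 0.132, limma adjusted p = 0.0513), which passed without replicate 2 or 3 of the +dox trametinib cells (0.0449 and 0.0483). Within trametinib the difference was 0.25 (adjusted p = 0.437). The second Orai1 probe set, which was above background on 11 of 12 arrays, rose by 1.08 in +dox cells (adjusted p = 0.0034 over all probe sets) and by 1.18 in −dox cells (adjusted p = 0.00272), where 1 of the DMSO arrays was under background.

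Orai3 can join Orai1 in mixed channels. It had levels of 8.66, 8.54 and 8.73 in +dox cells with trametinib, 8.70, 8.79 and 8.83 in −dox cells with trametinib, 8.08, 8.15 and 8.20 in +dox cells with DMSO and 8.19, 8.40 and 8.45 in −dox cells with DMSO. The trametinib arrays were again above all DMSO arrays, here across both cell states. Orai3 rose by 0.50 in +dox cells (SE 0.0976, 1.41-fold, limma adjusted p = 0.00288) and by 0.43 in −dox cells (SE 0.0976, 1.34-fold, adjusted p = 0.00914). Its doxycycline differences were −0.20 under DMSO (adjusted p = 0.277) and −0.13 under trametinib. This gene has 1 probe set.

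Upstream sequence is shown for the members that rose with trametinib in both cell states. RefSeq (GRCm38.p6) gave the 250 bases before the start for Orai1 and Orai3, and Atp2a2 was not matched. Capitals mark matches on either strand to the CCAAT box, the motif CCACG, the GC box GGGCGG and the E-box CACGTG, which may overlap.
Orai1, chr5:123014824-123015073, + strand: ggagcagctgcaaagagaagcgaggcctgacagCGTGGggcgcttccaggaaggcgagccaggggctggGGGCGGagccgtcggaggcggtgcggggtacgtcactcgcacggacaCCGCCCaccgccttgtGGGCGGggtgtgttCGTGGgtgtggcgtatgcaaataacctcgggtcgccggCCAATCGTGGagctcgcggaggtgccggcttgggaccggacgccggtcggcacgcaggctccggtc
Orai3, chr7:127769565-127769814, + strand: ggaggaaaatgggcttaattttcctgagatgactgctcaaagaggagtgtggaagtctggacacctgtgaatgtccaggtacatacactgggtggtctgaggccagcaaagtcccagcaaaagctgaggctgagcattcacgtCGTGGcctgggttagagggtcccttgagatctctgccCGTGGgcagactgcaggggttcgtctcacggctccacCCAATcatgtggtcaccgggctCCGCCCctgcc
Both windows held 1 CCAAT box. The motif CCACG was found 3 times in Orai1 and 2 times in Orai3, and the GC box 3 times in Orai1 and 1 time in Orai3. The E-box was found in neither, and nor was the ER stress element, which is a CCAAT box with the motif CCACG 9 bases further on. Of 32851 promoter windows of the same length, 33.8% held the CCAAT box, 28.3% the motif CCACG, 32.7% the GC box, 6.02% the E-box and 0.113% the ER stress element. GC content was 70.8% for Orai1 and 57.2% for Orai3.

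Orai2, a further pore protein that is known in immune cells to temper the current, was above background on 11 of 12 arrays. It averaged 5.08 in +dox cells with trametinib, 5.38 in −dox cells with trametinib, 5.44 in +dox cells with DMSO and 5.75 in −dox cells with DMSO, and single arrays ranged over 4.81 to 5.82. The trametinib arrays were below the DMSO arrays in each cell state, with log2 differences of −0.36 in +dox cells (limma adjusted p = 0.191) and −0.37 in −dox cells (adjusted p = 0.175). Neither passed the test. The second Orai2 probe set had −0.63 in +dox cells (adjusted p = 0.05) and −0.39 in −dox cells (adjusted p = 0.235).

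The calcium sensors are Stim1 and Stim2. Stim1, the sensor that responds to deep depletion of the store, had levels of 7.47, 7.64 and 7.59 in +dox cells with trametinib, 7.29, 7.80 and 7.81 in −dox cells with trametinib, 7.25, 7.13 and 7.44 in +dox cells with DMSO and 6.91, 7.17 and 6.98 in −dox cells with DMSO. With trametinib its log2 difference was 0.29 in +dox cells (limma adjusted p = 0.188), and it rose by 0.61 in −dox cells (SE 0.148, 1.53-fold, adjusted p = 0.0119). The trametinib arrays were above the DMSO arrays in both. These 2 responses differed by −0.32 (limma adjusted p = 0.609). The second Stim1 probe set, of a type that can match other transcripts too, rose by 0.41 in −dox cells (adjusted p = 0.0152). The call in −dox cells was lost without replicate 3 of the −dox trametinib cells (adjusted p = 0.0542) and when only the arrays of the compared groups were fitted (adjusted p = 0.0551).

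Stim2, the sensor that also holds resting calcium, averaged highest in +dox cells with DMSO. Its levels were 9.08, 9.40 and 8.97 in +dox cells with trametinib, 9.37, 8.87 and 8.92 in −dox cells with trametinib, 9.41, 9.94 and 9.74 in +dox cells with DMSO and 8.77, 9.02 and 9.02 in −dox cells with DMSO. Under DMSO it rose by 0.76 in +dox cells (SE 0.177, 1.69-fold, limma adjusted p = 0.0301), and within trametinib the difference was 0.10 (adjusted p = 0.912). With trametinib it fell by 0.55 in +dox cells (SE 0.177, adjusted p = 0.041), and its difference in −dox cells was 0.12 (adjusted p = 0.695). The difference between these responses was −0.66 (limma adjusted p = 0.322). The doxycycline call was lost without replicate 2 or 3 of the +dox DMSO cells or any 1 of the −dox DMSO arrays (adjusted p 0.0582 to 0.123). The trametinib call was lost without replicate 1 or 3 of the +dox trametinib cells, replicate 2 or 3 of the +dox DMSO cells, replicate 3 of the −dox trametinib cells or replicate 2 or 3 of the −dox DMSO cells (adjusted p 0.0518 to 0.151), with the mean of both Stim2 probe sets (−0.38, adjusted p = 0.207) and with probe sets tested singly (0.0508). The second Stim2 probe set had 0.80 for doxycycline under DMSO (adjusted p = 0.085) and −0.22 with trametinib in +dox cells (adjusted p = 0.599), and rose by 0.79 with trametinib in −dox cells (adjusted p = 0.0347).

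Trpc1, a cation channel tied to STIM1 in several cell types, had the larger of the 2 rises with doxycycline. Its levels were 8.66, 8.79 and 8.74 in +dox cells with trametinib, 8.55, 8.32 and 8.22 in −dox cells with trametinib, 8.89, 9.13 and 9.10 in +dox cells with DMSO and 7.93, 7.87 and 7.99 in −dox cells with DMSO. In +dox cells it was 2.16-fold higher under DMSO (log2 change 1.11, SE 0.108, limma adjusted p = 0.000435), and this held on leaving out each of the 12 arrays. Under trametinib the difference was 0.37 (adjusted p = 0.104), the +dox arrays again lying above the −dox arrays. In +dox cells all 3 trametinib arrays were below the DMSO arrays (−0.31, limma adjusted p = 0.0551), while Trpc1 rose by 0.43 with trametinib in −dox cells (SE 0.108, 1.35-fold, adjusted p = 0.014). The call in −dox cells was lost without replicate 1 of the −dox trametinib cells (adjusted p = 0.0518) and when only the arrays of the compared groups were fitted (0.0524). Without replicate 1 of the −dox trametinib cells the doxycycline difference under trametinib passed (0.46, adjusted p = 0.0373), as did the fall in +dox cells (−0.31, adjusted p = 0.0365), which also passed without replicate 1 of the +dox DMSO cells (adjusted p = 0.0322). The second Trpc1 probe set read 5.48, 5.58 and 5.67 in +dox cells with DMSO and 3.75, 4.55 and 4.81 in −dox cells with DMSO, the −dox arrays all lying under background (adjusted p = 0.0207). Over the 12 arrays, as a description, the genes most like Trpc1 were Loxl4 (r = 0.946), Orc4 (0.939) and Perp (0.935), and those most like Orai1 were Mal (0.970), Avil (0.959) and AU040320 (0.958).

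Doxycycline also moved markers of other cell types under DMSO. Of 6 fibroblast markers, 4 fell, namely Col1a1, Pdgfra, Pdgfrb and Dcn (median log2 change of the list −2.15), and 1 was under background on all arrays. The mean of the list on an array with DMSO was 5.62 to 6.10 in +dox cells and 7.22 to 7.51 in −dox cells. The +dox cells were also lower under trametinib for 2 of the 6, Col1a1 (−1.73, limma adjusted p = 0.00938) and Pdgfra (−1.20, adjusted p = 0.0415). Pdgfrb and Dcn were not called there. Of 5 leukocyte markers measured, 1 was called under DMSO: Itgam averaged 5.60 in +dox cells and 3.15, which is under background, in −dox cells (limma adjusted p = 0.0136). Its +dox DMSO arrays read 4.19, 6.90 and 5.72, and it was above background on 2 of 12 arrays. The mean of the leukocyte list on an array was 4.75 to 5.52 in +dox cells and 4.21 to 4.79 in −dox cells with DMSO, and Ptprc, the general leukocyte marker, was under background on all 12 arrays. With trametinib Itgam averaged 3.72 in +dox cells, which is under background and lower than with DMSO (limma adjusted p = 0.0131). Of the 6 fibroblast markers Col1a1 and Dcn rose with trametinib in both cell states while Pdgfra fell in −dox cells. Among 4 endothelium markers, Kdr alone was called for doxycycline under DMSO and was higher in +dox cells (0.41, limma adjusted p = 0.0487). Pecam1 (−0.32), Cdh5 (−0.09) and Tek (−0.34) had negative values and were not called. Pecam1 and Cdh5 were under background on all arrays. Among 4 epithelium and keratinocyte markers, Cdh1 alone was called for doxycycline under trametinib and was higher in +dox cells (1.43, limma adjusted p = 0.0106). Cdh1 was above background on 2 of 12 arrays, and its mean in −dox cells with trametinib, 3.55, lay under background. Krt5 (0.13), Krt14 (0.05) and Epcam (−0.08) were not called. With trametinib Cd3e, a leukocyte marker, rose in −dox cells (0.35, limma adjusted p = 0.0342). In +dox cells the melanocyte marker Mitf rose with trametinib from 6.97 to 8.19, and Cdh1 from 3.34, which is under background, to 4.99. The part of these lists in the changes of Trpc1, Stim2 and the other members was not tested.

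The calcium stores are filled by SERCA pumps. Atp2a2 had levels of 12.43, 12.45 and 12.16 in +dox cells with trametinib, 12.13, 12.26 and 12.24 in −dox cells with trametinib, 11.80, 12.09 and 11.98 in +dox cells with DMSO and 11.73, 11.72 and 11.82 in −dox cells with DMSO. It rose with trametinib by 0.39 in +dox cells (SE 0.109, 1.31-fold, limma adjusted p = 0.0204) and by 0.45 in −dox cells (SE 0.109, 1.37-fold, adjusted p = 0.0118). Its 6 probe sets did not move alike. A set of 4 rose in both cell states, by 0.39 to 1.12 in +dox cells and by 0.45 to 1.18 in −dox cells. The fifth had −0.07 in +dox cells and −0.80 in −dox cells (adjusted p = 0.185), and the sixth was above background on 2 of 12 arrays. Doxycycline differences of Atp2a2 were 0.20 under DMSO and 0.14 under trametinib, neither past the test. The call in +dox cells was lost without replicate 1 or 2 of the +dox trametinib cells or replicate 1 or 3 of the +dox DMSO cells (adjusted p up to 0.0798). It was also lost when only the arrays of the compared groups were fitted (limma adjusted p = 0.0554) and with arrays centred on their medians (0.058).

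**Figure D3:**
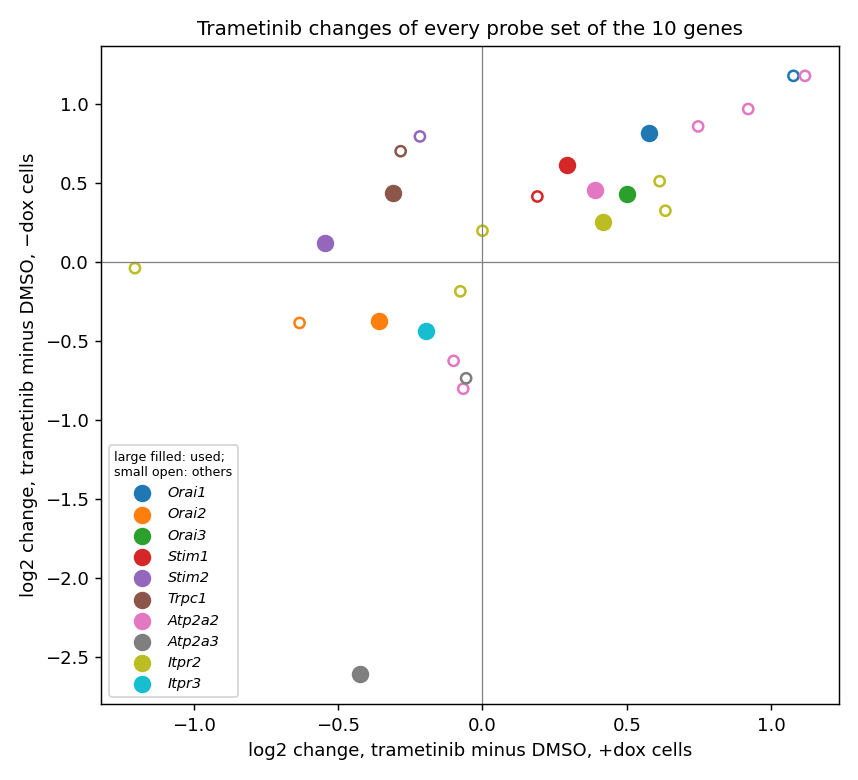
Log2 change with trametinib of each of the 26 probe sets in +dox cells (horizontal axis) and in −dox cells (vertical axis), coloured by gene; large filled points give the gene's value and small open points are its other probe sets. Both probe sets of Orai1 lie above 0 on both axes, those of Atp2a2 and Itpr2 lie on both sides of 0, and Atp2a3 lies lowest at −2.61 in −dox cells.

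Atp2a3, a pump known from platelets and lymphocytes, had the widest scatter. Its levels were 6.59, 6.51 and 6.71 in +dox cells with trametinib, 6.08, 5.85 and 6.03 in −dox cells with trametinib, 8.13, 6.63 and 6.32 in +dox cells with DMSO and 10.17, 7.37 and 8.25 in −dox cells with DMSO. With trametinib the log2 difference was −0.42 in +dox cells (limma adjusted p = 0.696), with arrays overlapping. It fell by 2.61 in −dox cells (SE 0.605, 6.11-fold, limma adjusted p = 0.00984), where no arrays overlapped, and by less without replicate 1 of the −dox DMSO cells (−1.82, adjusted p = 0.013). The second probe set fell by 0.74 (adjusted p = 0.0322). The responses of the +dox and −dox cells differed by 2.19 (SE 0.856, limma adjusted p = 0.341). Under DMSO the doxycycline difference was −1.57 (SE 0.605, limma adjusted p = 0.168), and it ranged from −2.18 to −0.78 on leaving out single arrays, being −0.78 without replicate 1 of the −dox DMSO cells. With array weights it passed (−1.43, adjusted p = 0.0123). Under trametinib the +dox arrays were all above the −dox arrays, with a log2 difference of 0.62 (SE 0.605, limma adjusted p = 0.777). That difference passed when only the arrays of the compared groups were fitted (adjusted p = 0.0355). Replicate 1 of both DMSO groups stood above the others.

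The IP3 receptors, the release channels, passed no test at their chosen probe sets. Itpr2 averaged 8.99, 8.57, 8.57 and 8.32 in +dox trametinib, −dox trametinib, +dox DMSO and −dox DMSO cells, with differences of 0.42 in +dox cells (limma adjusted p = 0.28) and 0.25 in −dox cells (adjusted p = 0.534). Without replicate 1 of the −dox DMSO cells the value in −dox cells was 0.57 and passed (adjusted p = 0.0453), and without replicate 2 it was 0.0017 (adjusted p = 0.996). One of its 6 probe sets, above background on 8 of 12 arrays, read 6.01, 6.11 and 6.72 in +dox DMSO cells and 4.68, 4.93 and 4.86 in −dox DMSO cells, a difference that passed the test (adjusted p = 0.00292), although 2 of these −dox arrays were under background. With trametinib this probe set fell in +dox cells (5.17, 4.93 and 5.13, adjusted p = 0.00121). The other sets were not called. Itpr3 averaged 8.96, 8.84, 9.16 and 9.28 in the same order of groups, with −0.20 in +dox cells (limma adjusted p = 0.533) and −0.44 in −dox cells (adjusted p = 0.129).

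In the order of group means, few neighbours differed beyond their spread. Trpc1 ran +dox DMSO, +dox trametinib, −dox trametinib and −dox DMSO from high to low, and only its lowest step passed. Stim2 had only its top step pass, +dox DMSO over +dox trametinib. Orai3 had +dox trametinib over −dox DMSO (0.30, limma adjusted p = 0.0471). No step between neighbours passed for the other 7 genes.

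Counts of other genes of the pathway are given per list, as called by limma, first for trametinib. They stand beside 26.2% of all genes called with trametinib in +dox cells and 22.4% in −dox cells. For doxycycline the shares of all genes were 6.15% under DMSO and 3.37% under trametinib. Of 10 other genes of store-operated entry, 2 rose and 2 fell in +dox cells and 1 rose and 2 fell in −dox cells. Tmem178, Trpc4, Trpc5 and Trpc6 lay under background on all arrays, so their lack of a call says little. Saraf, which slows the entry channel, rose by 0.70 in +dox cells and 0.76 in −dox cells. Cracr2b, a relative of a regulator of ORAI1, fell by 0.89 in +dox cells and fell by 1.21 in −dox cells. Trpc2 fell by 1.62 in +dox cells and fell by 1.66 in −dox cells, and 4.73, the mean of the −dox trametinib arrays, lay under background. Of 10 further genes of ER release and uptake, 1 rose and 1 fell in each cell state. Ryr1, Ryr2, Pln, Sln and Mrvi1 lay under background on all arrays. Tmbim6 rose by 0.46 in +dox cells and had 0.11 in −dox cells (adjusted p = 0.424). Tmco1, an ER calcium leak protein, had 0.45 in +dox cells (adjusted p = 0.0638) and rose by 0.62 in −dox cells, while Ahcyl1, which binds IP3 receptors, fell by 0.40 in +dox cells and fell by 0.58 in −dox cells.

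Of 13 calcium-binding and folding proteins, 2 rose and 1 fell in +dox cells and 3 rose and 1 fell in −dox cells. Casq1 and Casq2 lay under background on all arrays. Calr, a calcium-storing chaperone, rose by 0.58 in +dox and 0.54 in −dox cells. Calu had 0.38 in +dox cells (adjusted p = 0.0899) and rose by 0.59 in −dox cells, and Sdf4 rose by 0.49 in +dox and 0.58 in −dox cells, whereas Rcn1 fell by 0.74 in +dox cells and fell by 0.83 in −dox cells. Of 14 phospholipase C and IP3 kinase genes, which make and remove the IP3 signal, 4 rose and 1 fell in each cell state. Plcd4 and Itpka lay under background on all arrays. Plce1 rose by 2.75 in +dox and 2.11 in −dox cells, Plch1 by 1.31 in +dox and 1.07 in −dox cells and Plcb4 by 1.32 in +dox and 0.58 in −dox cells. The Plce1 arrays of −dox cells overlapped, at 10.12, 8.79 and 9.57 with trametinib and 8.95, 5.82 and 7.38 with DMSO (limma adjusted p = 0.0408). Plcd3 fell by 0.91 in +dox cells and fell by 0.82 in −dox cells. Of 10 export and Golgi pump genes, Atp2c1 alone was called, with 0.93 in +dox and 0.76 in −dox cells. Atp2b2, Atp2b3, Slc8a1, Slc8a2 and Slc8a3 lay under background on all arrays. Of 9 mitochondrial uptake genes 2 rose in each cell state, Mcur1 by 1.07 and Mcu, the pore of the uniporter, by 0.61 in +dox cells and Letm1 by 1.07 and Smdt1 by 0.45 in −dox cells. In the cell state where they were not called, Letm1 had 0.48 and Smdt1 0.36 in +dox cells, and Mcur1 had 0.42 and Mcu 0.24 in −dox cells. For doxycycline under DMSO, Tmbim6 fell by 0.51, Plcd1 fell by 2.06, Plcb4 fell by 1.25 and Mcur1 fell by 0.66. Under trametinib Itpkb rose by 0.89 and Plch1 by 0.87 in +dox cells. No other gene of these lists was called for doxycycline.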

How the data were processed

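Total RNA of each sample was measured on an Affymetrix array, with 4 groups of 3 arrays. The deposited values are log2 intensities per probe set, which the authors made from the scanner files by RMA in Chipster, whose version is not given in the sources used here, and they were used without further change. Of 45101 probe sets, 34945 carry 1 gene in the platform annotation and were used, 932 carry several, and 9224 carry none or are among the 64 control probe sets, which were left out. That annotation is old, and RefSeq (GRCm38.p6) gave the symbol through the gene ID for 34741 probe sets. Keeping for each gene the probe set of highest mean left 18193 genes. The background level, 4.87, is the 95th percentile of mean values among 84 olfactory, vomeronasal and taste receptor probe sets. No dim gene was removed. RMA compresses differences between dim probe sets. The small number of arrays limits precision.

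A linear model with 1 mean for each group was fitted to the 12 arrays in limma (3.58.1, R 4.3.3) with lmFit and default eBayes. Benjamini-Hochberg adjustment ran over all genes of a comparison, and 0.05 was the threshold. The methods of the study name no model for these arrays. The fit was tested on simulated data of 18193 genes, where it recovered 73% to 79% of 200 genes changed by 1 on the log2 scale in the comparisons between groups. It made 4 to 11 false calls per comparison. Of the called member changes, only Trpc1 with doxycycline under DMSO and Atp2a3 with trametinib in −dox cells exceeded that size. The simulation does not show how well smaller changes are recovered. Deviations from the group means were correlated between same-numbered arrays at 0.17 to 0.34 for +dox against −dox cells with DMSO, 0.21 to 0.29 with trametinib, 0.16 to 0.45 for the drug in +dox cells and 0.02 to 0.46 in −dox cells. Every pair reached 0.1 in all of these except the last. The best match of replicate 3 of the +dox or trametinib arrays had another number in all but doxycycline with trametinib. It was replicate 2 for doxycycline with DMSO and replicate 1 for the drug in both cell states. The numbers thus pair the arrays only in part, and no label states a pairing. The members and lists were chosen with earlier results of these data known. Named genes are the 10 members, the checks and markers, and up to 3 called genes of each list with the largest change and a higher mean above background. Genes of the lists that lay under background on all arrays are named too. Likeness is given for the 2 members of smallest adjusted p. Some genes of the lists are not reported here. The alternatives were a replicate block, only the compared arrays, mean values over probe sets, probe sets tested singly, a filter at background, quantile normalisation, centring, array weights, a trended robust eBayes, a fold over 2 and leaving out each array in turn. Plots were made in matplotlib (3.10.9, Python 3.11.15).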

Additional observations from a re-analysis of the deposited data

Results flagged for a closer look

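Trpc1 is given here for the position of its arrays in the 2 cell states. All 3 trametinib arrays of +dox cells were below their DMSO arrays, while all 3 of −dox cells were above theirs. The difference between the responses was −0.74 on the log2 scale (SE 0.152, limma adjusted p = 0.0793), which misses the threshold. The fall in +dox cells was not called either (−0.31, adjusted p = 0.0551). The difference passed in 2 of 9 other settings and on leaving out 1 of 12 arrays (adjusted p 0.04 to 0.214 over the 12). These were the settings with arrays centred on their medians (−0.93, adjusted p = 0.0317) and with array weights (−0.67, adjusted p = 0.0145), and the fit without replicate 1 of the +dox DMSO cells (−0.82, adjusted p = 0.04). The second probe set of Trpc1 had −0.98 (adjusted p = 0.343).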

How the results depend on the processing

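Of 12 called gene changes none reversed, and 6 stayed called in all alternatives that keep the adjusted p as the only threshold: Orai1 and Orai3 with trametinib in both cell states, Atp2a3 with trametinib in −dox cells and Trpc1 with doxycycline under DMSO. The replicate block gave 2 called members for doxycycline under DMSO, 0 under trametinib, 4 for trametinib in +dox cells, 6 in −dox cells and 0 for the difference, and changed no call of a member. Fitting only the compared arrays gave 1 for doxycycline under DMSO, 1 under trametinib (Atp2a3, adjusted p = 0.0355), 3 for trametinib in +dox cells and 4 in −dox cells. Centring gave 1 for the difference, and array weights gave 5 for doxycycline under DMSO, 1 under trametinib, 5 for trametinib in +dox cells, 9 in −dox cells and 1 for the difference. With a fold over 2 as well, 1 was called for doxycycline under DMSO, 0 for trametinib in +dox cells and 1 in −dox cells. Leaving out each array in turn gave 1 to 3 for doxycycline under DMSO, 0 to 1 under trametinib, 2 to 5 for trametinib in +dox cells, 5 to 7 in −dox cells and 0 to 1 for the difference. The share of all genes called was not taken in these alternatives. Their counts therefore cannot be read as particular to the members. Orai1 with doxycycline under DMSO passed with genes above background only (adjusted p = 0.0457), with quantile normalisation (0.0472), centred (0.0291) and with array weights (0.0169). Atp2a2 in −dox cells was lost with the mean of its probe sets (0.152).

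Sign changes touched uncalled values only. With the mean of probe sets they were Atp2a2 at −0.027 for doxycycline under DMSO, Stim2 at −0.058 for doxycycline under trametinib, and for the difference Orai2 at −0.12, Atp2a2 at 0.16 and Itpr2 at −0.11. For the difference, quantile normalisation gave Orai2 −0.062 and centring gave Orai2 −0.17, Orai3 −0.11 and Itpr2 −0.017. Array weights gave Stim2 −0.037 with trametinib in −dox cells. On leaving out single arrays, doxycycline under trametinib ranged from −0.028 to 0.26 for Stim2, −0.24 to 0.022 for Stim1 and −0.05 to 0.26 for Itpr3, and under DMSO from −0.26 to 0.072 for Itpr3. Trametinib ranged from −0.78 to 0.13 for Atp2a3 in +dox cells and −0.042 to 0.21 for Stim2 in −dox cells. The difference ranged from −0.19 to 0.15 for Orai2, −0.14 to 0.03 for Atp2a2 and −0.16 to 0.42 for Itpr2. The cause of these changes was not tested. At the 99th percentile of receptor probe sets as background, 9 of the 10 members had a mean above it, against 10 at the 95th.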
